A study of Mus musculus with 8 samples.

Results

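Cell adhesion, junction and matrix genes were followed from mouse embryonic stem (ES) cells to epiblast-like aggregates (ELA) in total RNA and in RNA recovered with ribosomes. Genes were taken by symbol, from the families of cadherins, catenins, tight junction and desmosome proteins, integrins, laminins, collagens, proteoglycans, talins, filamins and matrix proteases. This gave 38 of the 3160 genes in the table. The ES samples were the line E14Tg2A at 0 days in vitro (DIV), grown on gelatin with serum and leukemia inhibitory factor (LIF). The ELA samples were the same line at 2 DIV, after culture as floating aggregates in a minimal medium with N2 and B27 supplements and without serum or LIF. Before lysis, cells of both stages were trypsinised and incubated with cycloheximide to stall ribosomes. In each stage, input was the total RNA of the cleared lysate. Rpl10a-IP was the RNA that came down with an antibody against the endogenous ribosomal protein Rpl10a. There were 2 libraries of each of the 4 kinds, 8 in all, and all came from this line. The methods give the experiments as done in duplicate and do not say whether the duplicates were separate cultures, so p-values may measure only the spread between these libraries.

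Cells of an epithelium hold each other through cadherins, whose tails bind catenins that link them to actin, and seal their apical sides with tight junctions. They hold the basement membrane, a sheet of laminin, nidogen and other proteins, through integrins and dystroglycan, and talin, vinculin and filamin tie integrins to actin. Glypicans and syndecans are heparan sulfate proteoglycans at the surface, and proteases of the ADAM families cut surface and matrix proteins. ES cells grow as packed colonies held by E-cadherin. The epiblast of the implanting embryo is a polarised epithelium that rests on a basement membrane and faces a lumen.

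The 4 Rpl10a-IP libraries held 16076207 to 23483388 reads over the 3160 genes, the ES input libraries 3898414 and 5380139, and the ELA input libraries 159587 and 410192. The members had a median of 33 and 71.5 reads in the ELA input libraries, against 605.5 or more in each of the other 6. None of the 38 had 3 reads or fewer in any library, and the lowest were the 5 and 10 reads of Itga5 in ELA input. The methods set ELA input replicate 1 aside for low quality. Without it, 16 members rose and 16 fell in total RNA, 27 were higher and 6 lower on ribosomes in ELA, and 19 rose and 6 fell in enrichment, against 18 and 15, 25 and 6, and 17 and 5 with all 8 libraries. Of a list of 13 naive pluripotency markers 6 were in the table, and all 6 fell in total RNA, among them Nanog (log2 change −2.90). Dnmt3b, the 1 of 10 primed markers in the table, rose (2.62). Of the 4 general pluripotency markers 2 were in the table, and Pou5f1 fell (−1.18) and Sall4 rose (0.25). Nes, the 1 gene of a neural list in the table, rose by 2.51 in total RNA and 2.08 on ribosomes. Lists of primitive endoderm, mesoderm and fibroblast markers had no gene in the table, which holds only genes with like ratios in replicates. The part of other cell types in the values was not tested. In these bulk samples, fewer cells that express a gene and less of its RNA per cell cannot be told apart.

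The members fell into 7 classes by role: 4 cadherins and protocadherins, 5 catenins and junction plaque proteins, 4 tight junction and polarity proteins, 8 integrins and their links to actin, 9 basement membrane and other matrix genes, 4 surface proteoglycans and sialomucins, and 4 genes of the ADAM and ADAMTS families. Col4a3bp was taken in through its symbol and counted with the matrix genes, although it codes for a ceramide transporter, now called Cert1. Levels per kilobase of transcript, which can be compared between genes, spanned a wide range. In ES input the highest was that of Ctnnb1, the gene of β-catenin, at 1683 normalised counts per kb. It was followed by Ctnna1, for αE-catenin, at 1387, Cdh1, for E-cadherin, at 1096, Itgb1, for integrin β1, at 947, and Epcam, a homophilic adhesion molecule of epithelia, at 842. The lowest were Fras1, a matrix protein of the epithelial basement membrane, at 4.96, and Adamts15, a secreted protease that cuts proteoglycans, at 4.97. In ELA input Ctnnb1 (2199) and Cdh1 (1569) led, Ctnna1 stood at 647, while Fras1 (22.00), Celsr2 (22.5), Adam22 (27.4) and Itga5, for integrin α5 (27.6), were lowest.

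**Figure D1:**
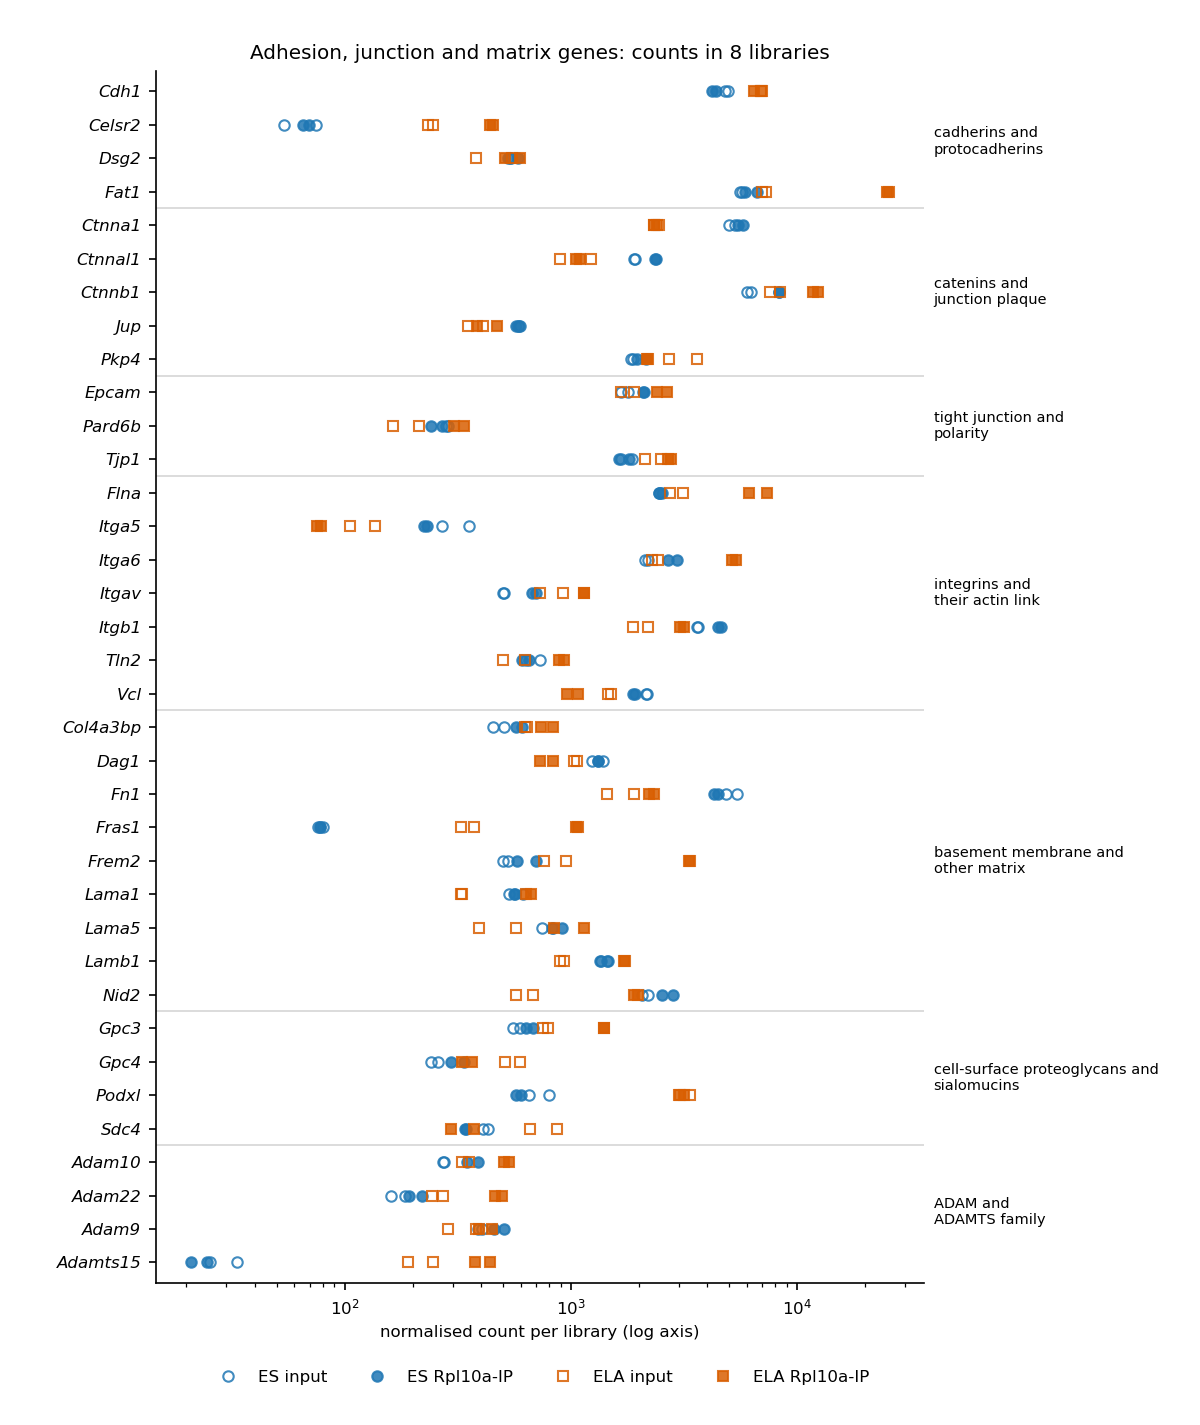
Normalised counts (log axis) of 36 of the 38 genes in each of the 8 libraries, ordered by class; open symbols are input and filled symbols Rpl10a-IP, circles ES and squares ELA. Fras1, Adamts15, Celsr2 and Podxl lie far to the right in ELA, Itga5 to the left, and Fat1 in ELA Rpl10a-IP, at 24848 and 25430.2, is the highest value of the plot.

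The first comparison asked how total RNA of these genes changed from ES to ELA, as the difference of input libraries in log2 normalised counts. Scaling makes such values relative to the other genes. As the methods say of their own normalisation, a change shared by most genes would not show, here or in the comparisons below. Of the 38, 18 rose and 15 fell at a limma adjusted p under 0.05, while 34.5% of all genes rose and 35.8% fell. The members' median change was 0.13 against −0.02 over all genes. Changes ran from −1.76 for Nid2 to 2.85 for Adamts15, with an SD over members of 1.02 against 0.851 over all genes. Podxl, Fras1, Adamts15 and Celsr2 rose over 3-fold, and Fn1 and Nid2, for fibronectin and a nidogen, fell over 3-fold. With the deposited size factors in place of TMM scaling, 16 members rose and 17 fell. In another fit, the effect of transcript length and GC content was taken out of every library, with the replicate number as a block. After this, 13 rose and 18 fell, with a median of −0.07 against −0.04 over all genes. The shares of all genes called after this correction were not counted, here or in later comparisons. Fat1 (−0.046) and Flna (−0.085) were among those that lost their calls, and Dsg2 (−0.38), Epcam (0.33) and Adam9 gained one.

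Of the cadherin class, 3 of 4 rose, against 34.5% of all genes. Cdh1 had normalised counts of 4939 and 4772 in ES input and 6933 and 6964 in ELA input, a 1.43-fold rise (log2 change 0.52, SE 0.10, limma adjusted p = 2.14e-05). Celsr2, a seven-pass cadherin of planar cell polarity, went from 74.9 and 54.1 to 245 and 233 (log2 change 1.89, SE 0.16, limma adjusted p = 1.24e-12). The ELA values of both genes lay above all ES values, those of Celsr2 on 9 and 22 reads. How often libraries separate in this way over all genes was not counted, here or for the genes below. Fat1, a giant protocadherin that acts on polarity and actin, rose from 5698 and 5575 to 7259 and 6996 (log2 change 0.34, SE 0.10, limma adjusted p = 0.00261). Dsg2, a desmosomal cadherin, was at 536 and 546 in ES and 381 and 551 in ELA and did not pass (log2 change −0.24, SE 0.14, limma adjusted p = 0.117).

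The catenins divided. Ctnnb1, which serves both junctions and Wnt signalling, rose from 5973 and 6219 to 8347 and 7589.8 (log2 change 0.39, SE 0.10, limma adjusted p = 0.000741). Ctnna1, which joins the cadherin complex to actin, fell from 5290.0 and 4966 to 2338 and 2449, 2.14-fold (log2 change −1.10, SE 0.10, limma adjusted p = 1.16e-11). Its relative Ctnnal1 fell from 1919 and 1906 to 897 and 1229.6, with a log2 change of −0.86. Thus the 2 counts of Ctnna1 in ELA were below every ES count, while those of Ctnnb1 were above. Of the plaque genes, Jup, for plakoglobin, fell (−0.64) and Pkp4, an armadillo protein of plaques and adherens junctions, rose from 1840.2 and 1870.3 to 3589 and 2714 (0.75). Among tight junction and polarity genes, Tjp1, the ZO-1 scaffold, rose by 0.39. Pard6b, of the Par polarity complex, fell by 0.60 and Epcam did not pass (0.05, adjusted p = 0.678 by limma). The limma call of Tjp1 was lost without ES input replicate 1 (adjusted p = 0.0582).

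Integrin genes moved in different directions. Itga5, whose product pairs with integrin β1 as the fibronectin receptor, fell from 356 and 269 to 136 and 106, 2.58-fold (log2 change −1.36, SE 0.16, limma adjusted p = 3.12e-09). Itgb1 fell from 3626 and 3602 to 1876 and 2184 (log2 change −0.84, SE 0.10, limma adjusted p = 1.16e-08). The ligand of this receptor, Fn1 (chromosome 1, 71585473 to 71653280, build GRCm38.p6), went from 5410.0 and 4843 to 1903 and 1442, 3.07-fold lower (log2 change −1.63, SE 0.11, limma adjusted p = 9.80e-15). For all 3 genes the ELA input values were below the ES ones without overlap, which was not counted over all genes. Itgav, for integrin αv, which also binds fibronectin and vitronectin, rose from 508 and 501 to 924 and 731 (0.70). Itga6, for the α subunit of laminin receptors, was at 2178 and 2116 and 2284 and 2417 and did not pass (0.13, adjusted p = 0.26 by limma). Of the genes that link integrins to actin, Vcl, for vinculin, fell (−0.55). Flna, an actin crosslinker, rose by 0.25 and Tln2, a talin, fell by 0.28. The limma call of Flna was lost without ES input replicate 1 or 2 or ELA input replicate 1 (adjusted p up to 0.198), and that of Tln2 without any 1 library other than ES input replicate 2 and ELA input replicate 1 (0.374).

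Of the 9 matrix genes, 6 fell in total RNA (66.7%, against 35.8% of all genes) and 3 rose (33.3%, against 34.5%), with a median of −0.61. Nid2, for the nidogen that bridges laminin and collagen networks (chromosome 14, 19751257 to 19811787), fell most, from 2181 and 2060.3 to 679.7 and 572, 3.39-fold (log2 change −1.76, SE 0.11, limma adjusted p = 6.74e-16). The laminin chains Lama1 (−0.80), Lama5 (−0.73) and Lamb1 (−0.61) fell together. Lama1, the α chain of the first laminin of the embryo, had 612 and 531 in ES input and 326 and 329 in ELA input, and Lamb1, its β partner, 1442 and 1351 and 897 and 933. Dag1, for dystroglycan, a laminin receptor, fell by 0.33, a limma call that was lost without ES input replicate 1 (adjusted p = 0.126). Fras1 and Frem2, which act in a complex under epithelia that anchors them to mesenchyme, rose. Fras1 (chromosome 5, 96373777 to 96784733) went from 76.6 and 80.6 to 326 and 371, 4.43-fold (log2 change 2.13, SE 0.14, limma adjusted p = 1.18e-15), and Frem2 (chromosome 3, 53513938 to 53658593) from 527 and 499.8 to 952 and 763 (log2 change 0.73, SE 0.12, limma adjusted p = 2.41e-06). The other that rose was Col4a3bp (0.40), which is no matrix gene, and its limma call was lost without ES input replicate 1 (adjusted p = 0.0625).

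All 4 surface proteoglycan and sialomucin genes rose, against 34.5% of all genes. Podxl, for podocalyxin, a sialomucin of apical and lumen-facing membranes (chromosome 6, 31519493 to 31563937), went from 802 and 652 to 2991 and 3360.3, 4.37-fold (log2 change 2.13, SE 0.11, limma adjusted p = 8.31e-18). Gpc4, a glypican that binds growth factors, rose from 241 and 258 to 598 and 509 (log2 change 1.14, SE 0.13, limma adjusted p = 1.85e-09), and its neighbour on chromosome X, Gpc3, by 0.42. Sdc4, a syndecan of focal adhesions, rose from 428 and 409 to 870.0 and 657 (log2 change 0.85, SE 0.14, limma adjusted p = 1.27e-06). Of the ADAM and ADAMTS genes, Adamts15 (chromosome 9, 30899155 to 30922452) rose most of all members, from 25.5 and 33.4 to 245 and 191, 7.39-fold (log2 change 2.85, SE 0.18, limma adjusted p = 1.14e-15). These values rest on 30 and 29 reads in ES input and 9 and 18 in ELA input. The methods kept genes that reached a set level in either stage. Adamts15 was low in ES, so it may be in the table only because it is high in ELA, which was not tested. The sheddase gene Adam10 (0.32) and Adam22 (0.58), whose product lacks protease activity, rose by less, and Adam9 did not pass (−0.26). The limma call of Adam10 was lost without either ES input library or ELA input replicate 1 (adjusted p up to 0.0897).

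The 250 bases before the start of 5 members are printed because Itga5 and Itgb1 fell together in total RNA, Gpc4 and Sdc4 rose together, and Pard6b held a motif of interest. They are RefSeq sequences of build GRCm38.p6, which had an entry for 24 of the 38 members (27 entries), and none of the 5 windows overlapped its annotated gene. The motif searched was CAGGTG on either strand (CACCTG on the other), the E-box bound by the Snail and Zeb repressors of epithelial genes, and its matches are in capitals.
Itga5, chr15:103366792-103367041, minus strand: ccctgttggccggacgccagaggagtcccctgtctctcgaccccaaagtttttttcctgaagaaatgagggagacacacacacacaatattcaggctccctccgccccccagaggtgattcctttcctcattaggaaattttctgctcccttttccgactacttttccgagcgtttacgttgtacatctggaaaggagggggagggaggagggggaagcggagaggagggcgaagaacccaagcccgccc
Itgb1, chr8:128685404-128685653, plus strand: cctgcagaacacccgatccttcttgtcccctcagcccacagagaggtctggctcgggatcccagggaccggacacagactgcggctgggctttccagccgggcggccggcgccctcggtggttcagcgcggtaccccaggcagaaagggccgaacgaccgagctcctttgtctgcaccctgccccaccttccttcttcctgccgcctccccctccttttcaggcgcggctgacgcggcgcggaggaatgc
Gpc4, chrX:52164924-52165173, minus strand: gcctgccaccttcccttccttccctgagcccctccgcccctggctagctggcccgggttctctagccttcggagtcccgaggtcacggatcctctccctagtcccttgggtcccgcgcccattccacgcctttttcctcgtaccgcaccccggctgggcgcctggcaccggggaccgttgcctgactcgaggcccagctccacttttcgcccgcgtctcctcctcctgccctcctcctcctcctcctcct
Sdc4, chr2:164443189-164443438, minus strand: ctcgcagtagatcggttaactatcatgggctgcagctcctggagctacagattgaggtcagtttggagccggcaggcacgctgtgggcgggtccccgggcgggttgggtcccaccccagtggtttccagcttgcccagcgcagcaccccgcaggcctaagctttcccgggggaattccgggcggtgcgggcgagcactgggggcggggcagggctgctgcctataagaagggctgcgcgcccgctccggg
Pard6b, chr2:168080754-168081003, plus strand: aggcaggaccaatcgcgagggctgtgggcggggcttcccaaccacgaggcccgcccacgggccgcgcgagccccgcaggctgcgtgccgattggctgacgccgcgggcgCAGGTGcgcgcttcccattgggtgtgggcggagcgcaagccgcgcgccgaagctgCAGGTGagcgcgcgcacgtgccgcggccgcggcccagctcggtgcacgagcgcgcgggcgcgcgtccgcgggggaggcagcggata
These letters occurred in 7 of the 27 entries of members (25.9%) and in 17.2% of all 32851 promoter windows of this length. Of the 27, 18 overlapped the annotated gene, 5 of the 7 with a match among them, so these shares are not of upstream sequence alone. Pard6b had 2 matches and the other 4 printed windows none. Epcam, whose window was also clear of its gene, had 2 and did not pass in total RNA. Celsr2 (2), Fat1 (1), Adam22 (1) and a window of Pkp4 (1) had matches and these genes rose, while Lama5 (2) fell. Whether the matches bear on RNA levels was not tested. The windows of Itgb1 and Sdc4 had 68.0% G and C, that of Gpc4 68.4%, that of Itga5 55.6% and that of Pard6b 77.6%.

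The second comparison set ribosome-bound RNA of ELA against that of ES, in the Rpl10a-IP libraries, where these genes had at least 83 reads. Of the 38 members, 22 rose and 9 fell by limma, against 41.1% and 42.3% of all genes, and the median change was 0.31 against −0.02. The genes with the largest rises in total RNA rose further here. Adamts15 went from 20.9 and 24.6 to 440.5 and 377, 18.0-fold (log2 change 4.11, SE 0.18, limma adjusted p = 1.87e-112). Fras1 went from 78.2 and 78.0 to 1052 and 1069, 13.6-fold (log2 change 3.75, SE 0.13, limma adjusted p = 8.06e-182). By size of rise, Adamts15 ranked 5 and Fras1 11 among the 3160. For Adamts15 the limit given above holds, that it may be in the table only through ELA. Celsr2 rose from 69.4 and 65.3 to 452 and 439 and Podxl from 603 and 570.2 to 3024 and 3144, with log2 changes of 2.71 and 2.39.

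Fat1, Frem2 and Flna rose much more on ribosomes than in total RNA. The counts of Fat1 (chromosome 8, 44933100 to 45052257) were 6638 and 5895 in ES Rpl10a-IP and 24848 and 25430.2 in ELA Rpl10a-IP, a 4.01-fold rise (log2 change 2.01, SE 0.09, limma adjusted p = 4.53e-113), where total RNA had risen 1.26-fold. Frem2 went from 702 and 578 to 3339 and 3331, 5.21-fold (log2 change 2.39, SE 0.10, limma adjusted p = 6.29e-133). Flna rose from 2483 and 2515 to 7347 and 6108 (1.42) and Itga6 from 2940.0 and 2677 to 5131 and 5365 (0.90). In each of these 4 genes every ELA library was above every ES library, which was not counted over all genes. Gpc3 (1.10), Adam22 (1.21), Itgav (0.74), Tjp1 (0.67), Cdh1 (0.63), Ctnnb1 (0.54), Tln2 (0.53), Adam10 (0.50), Col4a3bp (0.41) and Epcam (0.28) rose too, the last not without ELA Rpl10a-IP replicate 2 (limma adjusted p = 0.0694).

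The fibronectin receptor genes and the catenin genes that fell in total RNA also fell on ribosomes. Itga5 went from 230.0 and 224 to 78.8 and 75.8, 2.94-fold lower (log2 change −1.54, SE 0.14, limma adjusted p = 7.50e-29), and Itgb1 from 4583 and 4456 to 3016 and 3166 (−0.55). Ctnna1 fell from 5473 and 5747 to 2408 and 2324 (log2 change −1.25, SE 0.09, limma adjusted p = 5.68e-44), Ctnnal1 by 1.14 and Jup by 0.44. Vcl fell from 1886 and 1913 to 961 and 1078 (−0.90) and Dag1 from 1314 and 1318 to 829 and 727 (−0.76). Fn1 (−0.95) and Nid2 (−0.47) fell by less than in total RNA. Gpc4, Sdc4 and Pkp4, which had risen in total RNA, did not pass here: Gpc4 was at 335 and 294 and 364 and 329 (log2 change 0.14, 95% interval −0.08 to 0.36), Sdc4 at 342 and 341 and 374 and 294 (−0.04, −0.25 to 0.17), and Pkp4 changed by 0.09 (−0.09 to 0.27).

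After the same correction for length and GC content with the block, 18 members were higher and 17 lower. Their median was then 0.10 against 0.001 over all genes. Among those whose sign changed, Lama1, Lamb1 and Tln2 had a call before and after, while Lama5, Pkp4 and Sdc4 had one only after. Lama1 went from 0.21 to −0.70, Lamb1 from 0.30 to −0.40, Lama5 from 0.17 to −1.22 and Tln2 from 0.53 to −0.58. Fras1 (2.51), Frem2 (1.30), Fat1 (0.82), Podxl (1.74) and Itga5 (−2.12) kept their sign and their call. The calls of Itgav (0.13), Tjp1 (0.05) and Col4a3bp (0.08) were lost. Gpc4 (0.30) gained a call as higher, and Dsg2 (−0.47) and Adam9 gained calls as lower. The rise of Lama1 had also been lost without either ES Rpl10a-IP library or ELA Rpl10a-IP replicate 1 (limma adjusted p up to 0.166), that of Lamb1 without ES Rpl10a-IP replicate 2 (0.0568), and that of Pard6b (0.33) without replicate 2 of ES or of ELA Rpl10a-IP (0.155).

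**Figure D2:**
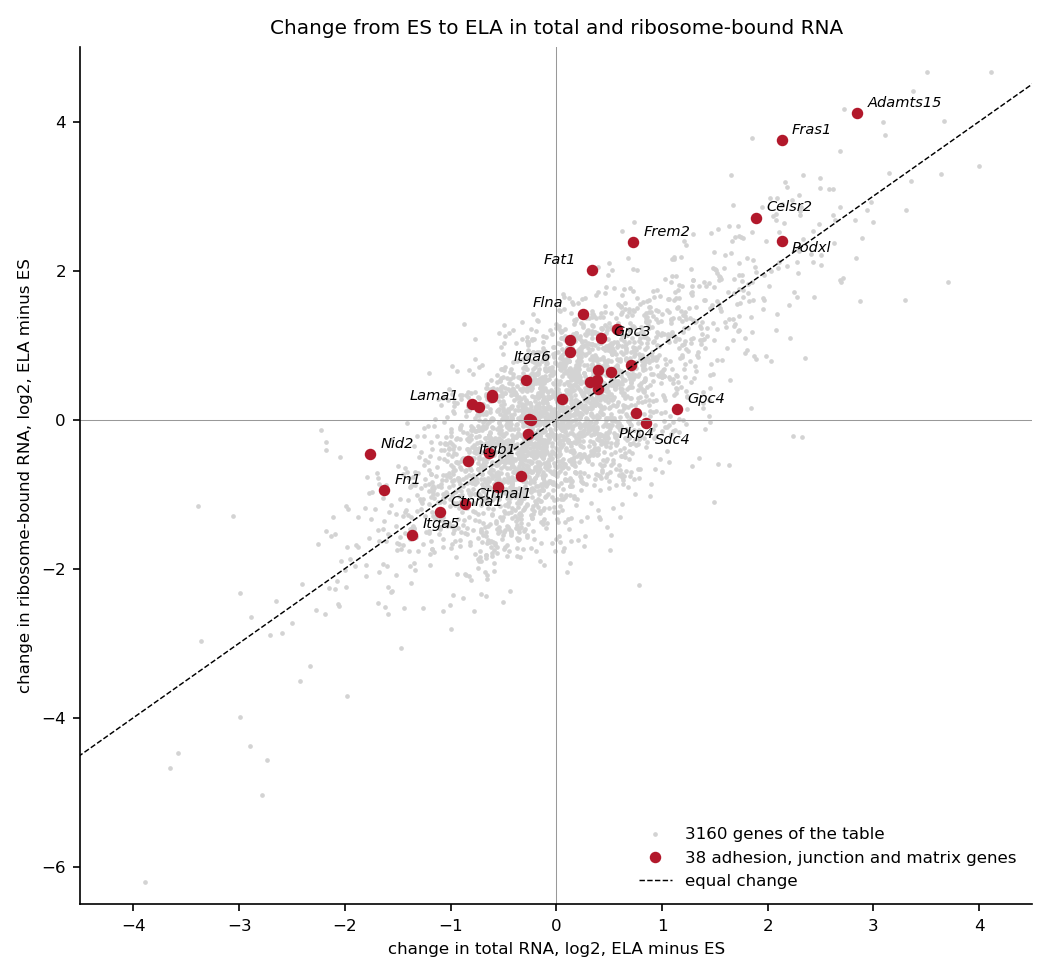
Log2 change from ES to ELA in total RNA (x axis, input libraries) and in ribosome-bound RNA (y axis, Rpl10a-IP libraries) for the 38 genes (red, some named) and all 3160 genes (grey); the dashed line marks equal change. Fat1, Frem2, Fras1 and Nid2 lie over 1 log2 unit above the line, and Gpc4, Sdc4 and Pkp4 below it.

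The third comparison asked which of these RNAs were over- or under-represented on ribosomes within ES cells. Differences were small. Of the 38, 12 had more in Rpl10a-IP than in input by limma and 4 had less, against 19.5% and 20.0% of all genes, and none differed by more than 2-fold. The ratio of Rpl10a-IP to input counts of Ctnnb1 was 1.39 and 1.33 in the 2 replicates (log2 change 0.44, SE 0.09, limma adjusted p = 4.72e-06), with counts of 5973 and 6219 in input and 8277 and 8284 in Rpl10a-IP. Integrin genes were at both ends. Itgav had ratios of 1.38 and 1.34 (log2 change 0.44, SE 0.10, limma adjusted p = 6.15e-05), Itga6 of 1.35 and 1.27 (log2 change 0.39, SE 0.09, limma adjusted p = 0.000113) and Itgb1 of 1.26 and 1.24 (0.32). Itga5 had the lowest, 0.646 and 0.830 (log2 change −0.45, SE 0.14, limma adjusted p = 0.00448). Adam10 (0.42), Nid2 (0.34), Gpc4 (0.33), Frem2 (0.31), Ctnnal1 (0.30), Col4a3bp (0.30), Epcam (0.28) and Adam9 (0.28) were higher, and Podxl (−0.30), Sdc4 (−0.29) and Fn1 (−0.23) lower. Cdh1 was at ratios of 0.848 and 0.919 and did not pass (−0.18, adjusted p = 0.0867 by limma), nor did the laminins, whose log2 changes lay between −0.02 and 0.16. After the length and GC correction with the block, 13 members were higher and 3 lower, with a median of 0.12 against 0.01 over all genes. Itga5 (−0.27, adjusted p = 0.0673 by limma) and Col4a3bp (0.14) lost their calls, and Pkp4 (0.23) and Gpc3 (0.20) gained one. Without the block 11 were higher and 1 lower, and Podxl, Sdc4 and Adam9 lost their calls too. The number of calls hung on single libraries. It was 5 without ES Rpl10a-IP replicate 1, 9 without replicate 2, 10 without ES input replicate 1 and 7 with ELA input replicate 1 added to the fit. Ctnnb1, Itgav, Itga6 and Itgb1 kept their calls under each library left out.

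In ELA the same ratio spread much more, over all genes as over members. Its SD was 0.716 over members and 0.812 over all genes, against 0.237 and 0.296 in ES. Of the 38 members, 25 had more and 6 had less in Rpl10a-IP than in input by limma, against 36.8% and 37.2% of all genes. Their median was 0.55 against −0.01, and 8 members were over 2-fold higher and 1 over 2-fold lower, which was not counted over all genes. With total reads as the scaling, the median of all genes moved by −0.11 and 22 members were higher and 6 lower. Frem2 ranked highest of the members, ahead of Fat1, Nid2 and Fras1. It had 952 and 763 in input and 3339 and 3331 in Rpl10a-IP, ratios of 3.51 and 4.36 (log2 change 1.97, SE 0.12, limma adjusted p = 5.57e-16). Nid2 had 679.7 and 572 and 1973 and 1901, ratios of 2.90 and 3.32 (log2 change 1.63, SE 0.11, limma adjusted p = 6.82e-15), and Fras1 ratios of 3.22 and 2.88 (log2 change 1.61, SE 0.14, limma adjusted p = 1.91e-12). Of the 9 genes of this class, 8 were higher, Lama5 at 1.05, Lama1 at 0.99, Lamb1 at 0.91 and Fn1 at 0.45 among them, and Dag1 was lower (−0.43).

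Fat1 was the leading cadherin, with ratios of 3.42 and 3.63 in ELA (log2 change 1.82, SE 0.10, limma adjusted p = 1.67e-17) after 1.17 and 1.06 in ES. Celsr2 had 1.85 and 1.88 (0.90), while Cdh1 stayed at 0.928 and 0.988 (−0.06, 95% interval −0.26 to 0.14). All 8 integrin and actin-link genes passed, 6 of them higher, where 36.8% of all genes were higher and 37.2% lower. Among the 6 were Flna (1.20), Itga6 (1.16), Tln2 (0.70), Itgb1 (0.61) and Itgav (0.47). Vcl was lower (−0.53), and so was Itga5, with ratios of 0.580 and 0.715 (log2 change −0.63, SE 0.16, limma adjusted p = 0.00069). The value of Itga5 rests on 5 and 10 reads in input, and when each value was weighted by its counting error the limma adjusted p was 0.072. Surface proteoglycans went both ways. Sdc4 was lowest of all members, at 870.0 and 657 in input and 374 and 294 in Rpl10a-IP, ratios of 0.430 and 0.448 (log2 change −1.19, SE 0.14, limma adjusted p = 1.52e-09). Gpc4 was also lower, at 0.608 and 0.648 (log2 change −0.67, SE 0.13, limma adjusted p = 2.68e-05), and Gpc3 higher, at 1.78 and 1.87 (log2 change 0.87, SE 0.11, limma adjusted p = 2.50e-08). The 4 ADAM and ADAMTS genes were all higher, from 0.35 for Adam9 to 0.91 for Adamts15, against the same 36.8% of all genes. Of the smaller differences, that of Adam9 was lost without ELA Rpl10a-IP replicate 1 or ELA input replicate 2 (limma adjusted p up to 0.32) and that of Col4a3bp (0.31) without ELA Rpl10a-IP replicate 2 (0.204). After the length and GC correction with the block, 21 were higher and 9 lower, with a median of 0.30 against 0.02 over all genes. Among those that lost their calls were Tln2 (0.013), Itgav (0.049), Col4a3bp (0.11) and Fn1 (−0.01). Tjp1 was then lower (−0.23), from 0.24 without a call. Cdh1 (−0.30, adjusted p = 0.00195 by limma) and Podxl (−0.37) also gained calls as lower, and Jup (0.30) as higher. With a block for each stage and replicate number, Dsg2 and Tjp1 gained calls as higher (limma adjusted p = 0.0249 and 0.0319).

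**Figure D3:**
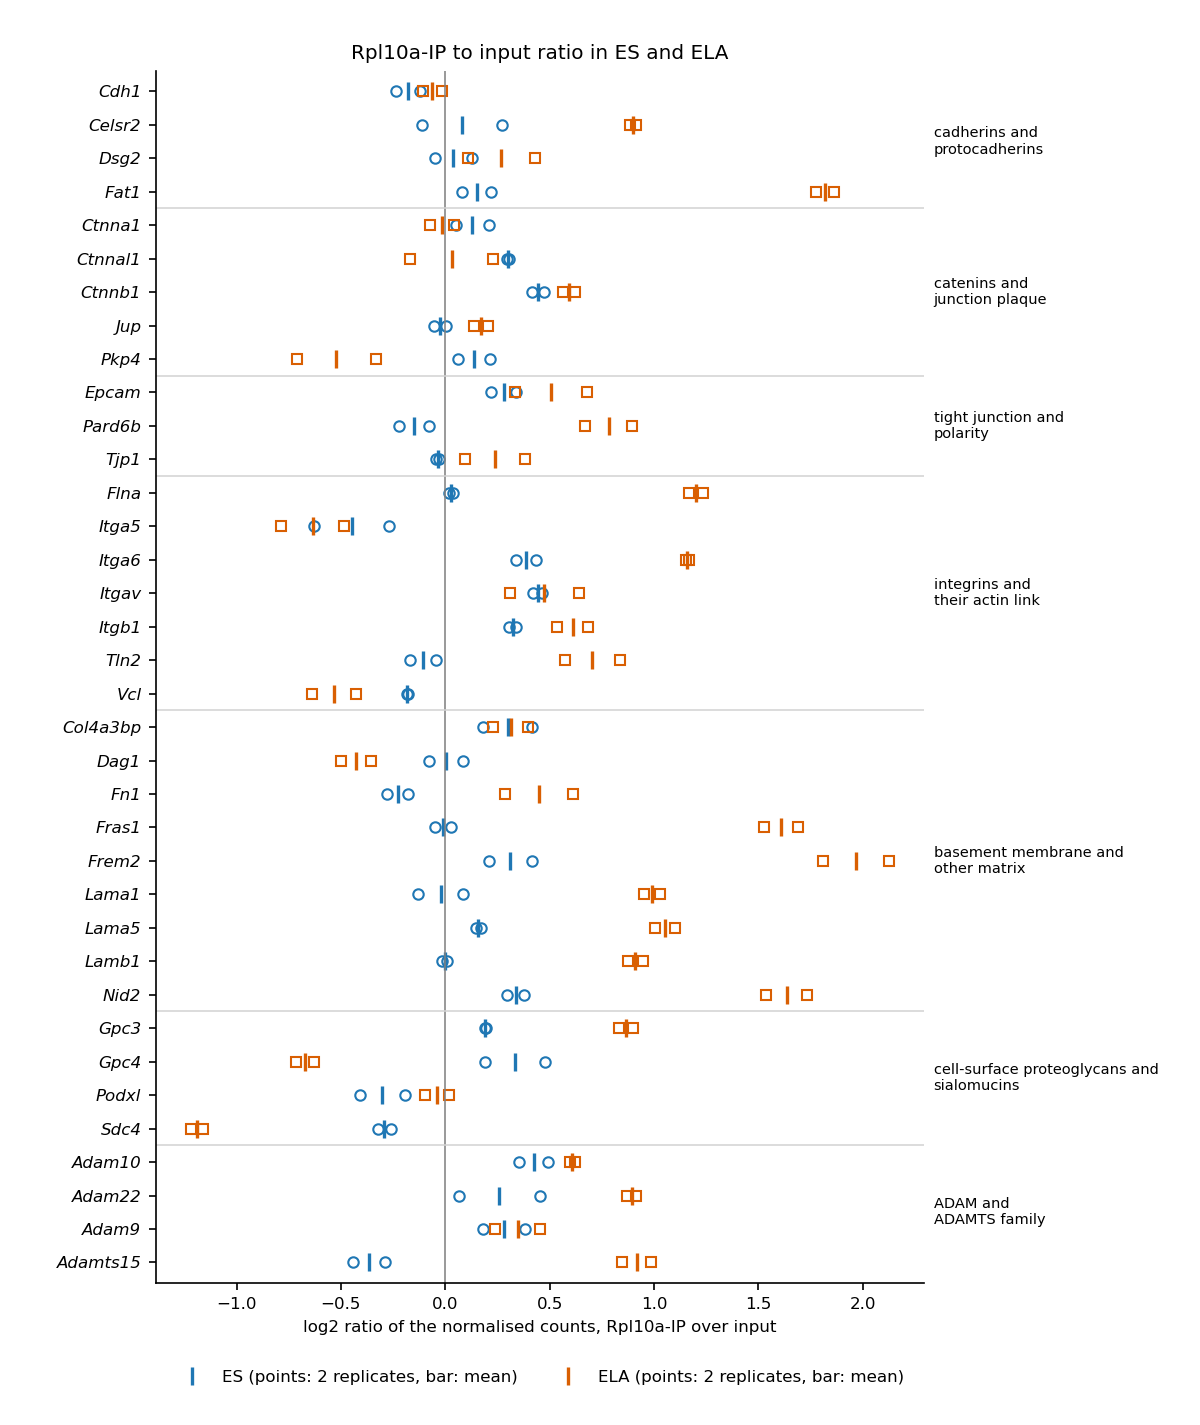
Log2 ratio of Rpl10a-IP to input normalised counts of 36 of the 38 genes in the 2 replicates (open circles in ES, open squares in ELA) and their mean (bar), in ES (blue) and ELA (orange). In ES these means lie between −0.45 and 0.44, and in ELA they reach from −1.19 for Sdc4 to 1.97 for Frem2.

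The last comparison tested the change of ribosome enrichment from ES to ELA, the interaction of stage and fraction. Of the 38 members, 17 rose and 5 fell by limma, against 28.4% and 27.7% of all genes, with a median of 0.27 against 0.01. Of the 9 basement membrane and matrix genes, 7 rose: Frem2, Fras1, Nid2, Lama1, Lamb1, Lama5 and Fn1. The ratio of Frem2 went from 1.24 ± 0.124 (SD, n = 2) in ES to 3.94 ± 0.604 (SD, n = 2) in ELA (log2 change 1.66, SE 0.17, limma adjusted p = 1.14e-09). That of Fat1 went from 1.11 ± 0.0762 to 3.53 ± 0.150 (SD, n = 2; log2 change 1.67, SE 0.14, limma adjusted p = 1.36e-11). By size of rise, Fat1 ranked 15 and Frem2 16 among the 3160.

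In 7 members total RNA fell while enrichment rose (18.4%, against 11.5% of all genes): Nid2, Fn1, Lama1, Lama5, Lamb1, Tln2 and Pard6b. Nid2 fell to 0.295 of its ES level in input, in normalised counts. Its ratio rose from 1.26 ± 0.0516 to 3.11 ± 0.295 (SD, n = 2; log2 change 1.30, SE 0.16, limma adjusted p = 2.83e-08). Its ribosome-bound RNA ended at 0.723 of the ES level, in normalised counts. For Lama1 the ratios were 0.914 and 1.06 in ES and 2.04 and 1.93 in ELA (log2 change 1.01, SE 0.17, limma adjusted p = 6.70e-06), for Lamb1 1.01 and 0.990 and 1.93 and 1.83 (0.91), and for Lama5 1.11 and 1.13 and 2.01 and 2.14 (0.89). The ELA ratios of the 3 laminin chains were all near 2, and no ES ratio of theirs exceeded 1.13. Fn1 was below its input in ES and above it in ELA, with ratios of 0.824 and 0.884 and then 1.22 and 1.53 (log2 change 0.68, SE 0.16, limma adjusted p = 0.000602). Its call as lower in ES was lost without ES input replicate 1 or either ES Rpl10a-IP library (limma adjusted p up to 0.302). Because total RNA enters both measures, with opposite sign, these calls are not independent of each other. After the length and GC correction with the block, Fn1 and Tln2 lost the call in enrichment.

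In 8 members (21.1%, against 8.10% of all genes) both measures rose: Fat1, Frem2, Fras1, Celsr2, Adamts15, Flna, Gpc3 and Adam22. After the length and GC correction with the block, the total RNA calls of Fat1, Flna and Adam22 and the enrichment calls of Celsr2 and Adam22 were lost, while Frem2, Fras1, Adamts15 and Gpc3 kept both. Fras1 had ratios of 1.02 and 0.968 in ES and 3.22 and 2.88 in ELA (log2 change 1.61, SE 0.20, limma adjusted p = 2.43e-08), Adamts15 of 0.820 and 0.735 and 1.80 and 1.98 (1.26), and Flna of 1.01 and 1.03 and 2.35 and 2.24 (log2 change 1.17, SE 0.15, limma adjusted p = 9.71e-08). Itga6 rose in enrichment (0.77) and did not pass in total RNA. Gpc4, Sdc4 and Pkp4 rose in total RNA and fell in enrichment. Gpc4 went from ratios of 1.39 and 1.14 to 0.608 and 0.648 (log2 change −1.002, SE 0.19, limma adjusted p = 2.61e-05), Sdc4 from 0.800 and 0.834 to 0.430 and 0.448 (log2 change −0.90, SE 0.19, limma adjusted p = 0.000192) and Pkp4 from 1.16 and 1.04 to 0.610 and 0.795 (log2 change −0.66, SE 0.16, limma adjusted p = 0.000835). Dag1 (−0.43) and Vcl (−0.35) fell in both. Vcl lost its limma call without any 1 of the ES libraries or ELA Rpl10a-IP replicate 1 (adjusted p up to 0.203). Dag1 lost it without ES input replicate 2, either ES Rpl10a-IP library or ELA Rpl10a-IP replicate 2 (up to 0.125), and Adam22 (0.63) without ES Rpl10a-IP replicate 2 (0.0638). Vcl overlaps Ap3m1, another gene of the table, and as no source says whether counting used strand, its reads are uncertain. Nid2 overlaps Rtraf and Ctnna1 overlaps Lrrtm2, genes outside the table, and the same holds for them.

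The core of the adherens junction did not pass this test. Cdh1 changed by 0.12 (95% interval −0.17 to 0.40), Ctnnb1 by 0.15 (−0.13 to 0.43), Ctnna1 by −0.15 (−0.44 to 0.14) and Jup by 0.20 (−0.16 to 0.56). Epcam (0.23), Tjp1 (0.28), Podxl (0.26) and Itgb1 (0.29) did not pass either. Of the 4 tight junction and polarity genes, Pard6b rose, from ratios of 0.946 and 0.857 to 1.86 and 1.59 (log2 change 0.93, SE 0.20, limma adjusted p = 0.000197). In ELA input it had 6 and 20 reads.

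Transcript length moved with this change. The members were long, with a median transcript of 5057 nt against 3517 nt over the 2980 genes with a length, and 11 of them (28.9%) exceeded 8 kb, against 6.61% of all. Among them were Adam22, Celsr2, Fat1, Flna, Fn1, Fras1, Frem2, Lama1, Lama5 and Tln2. Pearson's r between the change and log10 transcript length was 0.66 across the 38 members and 0.49 across all genes with a length, and with log10 coding length 0.67 and 0.65. Genes are not replicates, and all these points come from the same 8 libraries. The median change over all genes was −0.46 for transcripts of up to 2 kb, −0.07 from 2 to 4 kb, 0.18 from 4 to 6 kb, 0.38 from 6 to 8 kb and 0.63 above 8 kb. Of the 11 long members, 10 lay above the median of their length class. Of the 14 members of 4 to 6 kb, 8 did, of the 11 of 2 to 4 kb, 7 did, and of the 2 of 6 to 8 kb, Itgav and Tjp1, 0 did.

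After the correction for length and GC content with the block, 14 members rose and 5 fell, with a median of 0.16 against 0.01 over all genes. Frem2 (0.98), Nid2 (0.92), Fat1 (0.87), Adamts15 (0.86), Gpc3 (0.82), Fras1 (0.77), Pard6b (0.76), Flna (0.75) and Itga6 (0.61) stayed over 0.6, and the laminins kept their calls, Lama5 at 0.58, Lama1 at 0.52 and Lamb1 at 0.48. Calls were lost for Celsr2 (0.45, adjusted p = 0.0507 by limma), Fn1 (0.25), Tln2 (0.16) and Adam22 (0.16), and Itgb1 gained one (0.36). Gpc4 (−1.04), Pkp4 (−1.01), Sdc4 (−0.85), Dag1 (−0.75) and Vcl (−0.66) stayed lower. After the correction, Pearson's r with transcript length was 0.43 across the members and 0.06 across all genes, and with coding length 0.47 and 0.35. How much of the change belongs to length was not tested.

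**Figure D4:**
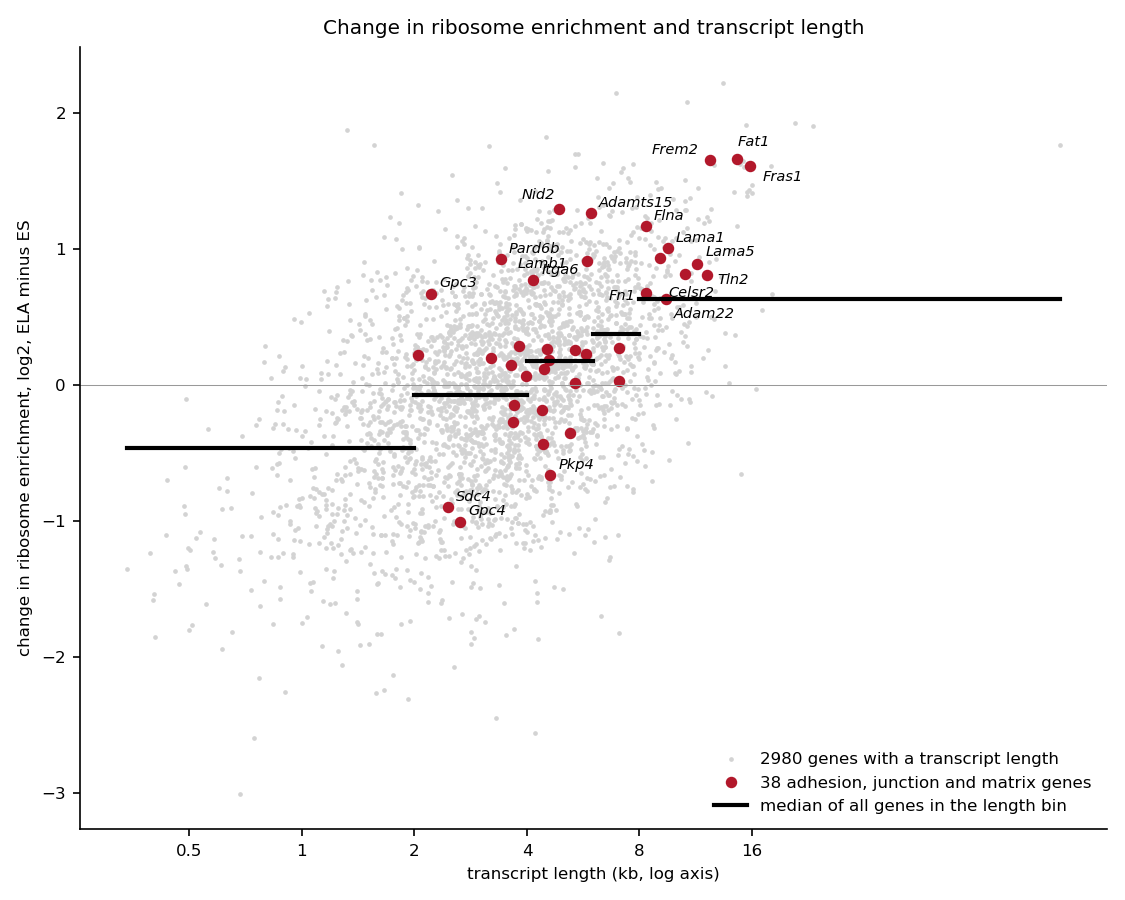
Change in ribosome enrichment from ES to ELA (log2, y axis) against transcript length (kb, log x axis) for the 38 genes (red, some named) and the 2980 genes with a length (grey); black bars are medians of all genes per length class. The bars rise from −0.46 to 0.63, Nid2, Adamts15 and Pard6b lie over 0.9 at moderate length, and Gpc4, Sdc4 and Pkp4 lie below −0.6.

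Further genes of adhesion that the symbol rule did not take were counted in lists by role. Their values are given without the length and GC correction. Of all genes, 34.5% rose and 35.8% fell in total RNA, 41.1% and 42.3% on ribosomes and 28.4% and 27.7% in enrichment. Of 14 genes of focal adhesion and integrin signalling, 6 (42.9%) rose and 1 (7.14%) fell in total RNA. Lims1, for the adaptor PINCH1, rose most (1.14), and its enrichment fell (−0.55), as did that of the Rap1 genes Rap1a (−0.98) and Rap1b (−0.75), switches that activate integrins. In total, enrichment rose for 1 of the 14 (7.14%) and fell for 4 (28.6%), the falls near the share of all genes. The transcripts of Lims1, Rap1b and Rap1a are of 1565, 2024 and 2401 nt. Of 12 genes of cell and planar polarity, 8 (66.7%) rose and 2 (16.7%) fell in total RNA and 10 (83.3%) rose on ribosomes, among them the angiomotin relatives Amotl1 (total RNA 1.05) and Amotl2 (1.17). Of 20 other adhesion receptors, 10 (50%) rose and 6 (30%) fell in total RNA, the falls near the share of all genes. Icam1, a ligand of leukocyte integrins, fell most (−3.36), and the neural adhesion molecule Ncam1 rose (1.23). Of 19 actin linkers, enrichment rose for 6 (31.6%), near the share of all genes, and fell for 8 (42.1%). The giant linker Dst rose by 1.91 and the spectrins Sptbn1 by 1.36 and Sptan1 by 1.03, while Actn1, for α-actinin, fell (−0.58). Of 9 genes of matrix synthesis and secretion, 3 (33.3%) fell and 1 (11.1%) rose in total RNA, the last being Pxdn, for peroxidasin, which crosslinks collagen IV (2.17 in total RNA, 3.19 on ribosomes). On ribosomes 5 of the 9 (55.6%) fell and 2 (22.2%) rose. Of 8 regulators of junctions and epithelial-mesenchymal transition, 5 (62.5%) rose and 2 (25%) fell in total RNA, within −1.40 for Klf8 and 0.56 for the splicing factor Esrp1.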

How the data were processed

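RNA was sequenced from input and Rpl10a-IP of ES cells and ELA, with 2 libraries of each. The authors mapped reads with TopHat2 to the mm10 transcriptome without repeats, counted them with htseq-count, divided them by DESeq2 size factors and filtered genes on level and on spread between replicates. The methods state the latter on counts; in the deposited table the SD of the 2 replicate ratios is under 20% of their mean in every gene, while that of ELA input counts is over it in 395. As genes were chosen for low spread between replicates, adjusted p-values may be too small, which was not tested. The source names of the 2 samples titled as input replicate 2 say replicate 1, and the titles were used. The deposited values are thus a signal per gene, normalised counts of reads. Deposited means, SDs, ratios and fold changes were not used. The control immunoprecipitations were not analysed here.

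Values were turned back into reads (100% came out whole within 1e-06), scaled by TMM with code written for this purpose, and fitted with limma 3.58.1 (R 4.3.3) as log2(value + 1), a scale that understates changes of low genes, with a trended eBayes prior. Its degrees of freedom were infinite with 7 libraries and 30.7 with 8, so the smallest p-values come from a spread pooled over genes. P-values were adjusted by Benjamini-Hochberg over all 3160 genes, with a threshold of 0.05. Enrichment in ES and the change on ribosomes were fitted on 7 libraries, without ELA input replicate 1, and the rest on 8. Members and lists were chosen with earlier results of these data known. Genes named were the 6 largest called rises and falls per comparison, the gene of highest mean count in each class and a list of textbook genes. Others were named after their values were seen. The fit was tested on simulated data. Transcript lengths came from GENCODE and matched 2980 genes, all 38 members among them. All 38 enter the fits and counts, and 2 of them are not reported here singly.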

Additional observations from a re-analysis of the deposited data

Results flagged for a closer look

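Ribosome enrichment differed between ELA and ES in 21 of the 36 genes reported singly by the interaction term of the limma fit, 16 of them higher in ELA and 5 lower, which stand against 28.4% of all 3160 genes higher and 27.7% lower. The values in brackets are this change, ELA minus ES, in log2 units of the Rpl10a-IP over input ratio, and no cause was tested. It was higher in ELA for the cadherin family genes Fat1 (1.67) and Celsr2 (0.82), and for the basement membrane and matrix genes Frem2 (1.66), Fras1 (1.61), Nid2 (1.30), Lama1 (1.01), Lamb1 (0.91), Lama5 (0.89) and Fn1 (0.68). It was also higher for the actin-link genes Flna (1.17) and Tln2 (0.81), the integrin gene Itga6 (0.77), the polarity gene Pard6b (0.93), the ADAM and ADAMTS genes Adamts15 (1.26) and Adam22 (0.63), and the glypican gene Gpc3 (0.67). It was lower for the proteoglycan genes Gpc4 (−1.002) and Sdc4 (−0.90), the plaque gene Pkp4 (−0.66), the dystroglycan gene Dag1 (−0.43) and the vinculin gene Vcl (−0.35). Of these, Fn1 and Gpc4 were called in both stages with opposite signs, Fn1 at −0.23 in ES and 0.45 in ELA and Gpc4 at 0.33 and −0.67. Both ES calls were lost with all 8 libraries (limma adjusted p = 0.139 and 0.0602) and without ES input replicate 1 or ES Rpl10a-IP replicate 1, that of Fn1 also without ES Rpl10a-IP replicate 2 (up to 0.302 for Fn1 and 0.279 for Gpc4). After the length and GC correction Fn1 in ELA was at −0.013.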

How the results depend on the processing

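Over 3096 recomputed values of the 180 results of single genes, 2903 kept their side of the threshold, and their direction where they were called, 122 lost the call, 51 gained one, and 20 changed sign with a call on at least 1 side. These 20 came from the length and GC correction, with the same values with or without the replicate block. In ELA enrichment Tjp1 went to −0.23 and Fn1 to −0.013, in total RNA Fat1 to −0.046 and Flna to −0.085, and in ribosome-bound RNA Pkp4 to −0.40, Tln2 to −0.58, Lama1 to −0.70, Lama5 to −1.22, Lamb1 to −0.40 and Sdc4 to 0.25. The cause was not tested. Members called in ES enrichment numbered 16, and 7 with all 8 libraries. With 1 library left out at a time the counts ran from 5 to 16 in ES enrichment, 29 to 33 in ELA enrichment, 26 to 33 in total RNA, 28 to 31 on ribosomes and 19 to 25 in the enrichment change. Total reads moved the median of all genes by −0.11 in ELA enrichment, and the deposited size factors by −0.11 on ribosomes, where 18 members were then higher and 10 lower. Per the methods, input was taken from the lysate that then went into the immunoprecipitation, and deviations of same-numbered input and Rpl10a-IP libraries correlated at 0.17 in ES and 0.50 in ELA. Across stages replicates shared only a number (−0.02 to 0.17). A replicate block within each stage, added after the data were seen, gave 18 calls in ES enrichment (Adam22 and Adamts15 gained), 33 in ELA enrichment and 22 in its change, and lost none of the genes reported singly. The replicate block over both stages gave 16, 33, 34, 31 and 22 calls in the 5 comparisons, against 16, 31, 33, 31 and 22. The planned count models on the reads read back were not run, nor were the deposited size factors for enrichment within ES or within ELA. For the change in enrichment they gave 21 calls. Depth limits the ELA input values most: the median member had 33 and 71.5 reads there. With weights for counting error, 31 members were called in total RNA and 23 in the enrichment change.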
